A study of Mus musculus with 9 samples.

Results

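Microtubule plus-end proteins are the subject here: the 7 genes Clasp1, Clasp2, Clip1, Clip2, Mapre1, Mapre2 and Mapre3, taken by symbol out of 21553 genes with counts. They were chosen by name as a gene family, with the inclusion of several of their exons in these same libraries already known, so their values are given as descriptions, and p-values of members appear only as counts beside the same count over all features. The splicing tables list 65 cassette exons for them out of 54141, and 63 of those reached 10 reads in every one of the 6 second-experiment libraries. The cells were N2A, an established mouse neuroblastoma line, and polyA RNA was sequenced 48 hours after transfection of siRNA pools, 9 libraries in 6 groups. A first experiment had 1 library each for a non-targeting pool, for siRNAs against Mbnl1 and Mbnl2 together, and for siRNAs against Nacc1. A second experiment had 2 libraries each for a non-targeting pool, for Srrm4 and for Zfp871, told apart by the letters a and b. The cells carry their own genes in all groups, the siRNAs reduce the targets without removing them, and no source states that the libraries within a group are separate cultures. The p-values given below for other genes then measure only the spread between these libraries, which may be technical.

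Growing microtubule plus ends are tracked by EB proteins, encoded by Mapre1 (EB1), Mapre2 (EB2) and Mapre3 (EB3), which recognise the freshly added tubulin and recruit most other plus-end proteins. CLIP-170 (Clip1) and CLIP-115 (Clip2) bind microtubules through CAP-Gly domains, and the CLASPs, encoded by Clasp1 and Clasp2, hold on to EB proteins and CLIPs and favour rescue and pausing of the polymer, for example at the cell cortex and in growth cones. Srrm4 promotes inclusion of very short neuronal exons (microexons), and Mbnl1 and Mbnl2 are splicing factors that act on many developmentally regulated exons, whereas Nacc1 and Zfp871 encode a BTB-domain transcriptional regulator and a zinc finger protein.

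Libraries of the first experiment held 50086176 to 63715449 counts, and those of the second 44186088 to 61159670. Each siRNA target was lower in its own knockdown, for instance Srrm4 at 28.3 and 26.1 CPM (counts scaled to a common library total) against 66.8 and 96.7 in control, and Zfp871 at 7.17 and 5.08 against 17.6 and 26.2. Of 12 sympathetic neuroblastoma markers 11 reached 1 RPKM (counts scaled by length and library total) in all 9 libraries, as did 4 of 4 neuronal markers. Of the glial, fibroblast, epithelial and immune markers none reached 1 RPKM in all libraries, with summed levels of at most 2.25, 0.47, 1.87 and 1.35.

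Inclusion of a cassette exon is given as percent spliced in (PSI), the share of its junction reads that include the exon. In 8 exons of Clasp1, Clasp2 and Clip1, the mean PSI of a knockdown of the second experiment differed by at least 10 points with both libraries outside both controls, or a knockdown of the first experiment differed by at least 20 points. These 8 are described one by one, on 71 to 289 reads per library. Their lengths are all multiples of 3, so that either choice keeps the reading frame. Such lengths are found in 34 of the other 55 exons with reads and 40.8% of all 20265 tested exons. The 55 include exons that were not tested, and the share among microexons alone is not given here. All 8 matched coding exons of protein-coding GENCODE transcripts by exon length and distance to the neighbouring splice sites. On mm9, the build of the deposited tables, the Clasp1 exons are chr1:120419898-120419924 (27 nt), chr1:120428555-120428662 (108 nt) and chr1:120438252-120438275 (24 nt). The Clasp2 exons are chr9:113767699-113767722 (24 nt, the earlier of its pair of that length), chr9:113769238-113769255 (18 nt) and chr9:113787868-113787891 (24 nt, the later). The Clip1 exons are chr5:124031601-124031606 (6 nt) and chr5:124085183-124085287 (105 nt).

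The 6 microexons (3 to 27 nt) among the 8 are printed below, to show how short they are and which pair is alike. The 105-nt Clip1 exon is printed with them, as the one longer exon that passed the size of the first experiment. Capitals mark the exon and lower case the 18 bases on each side in the spliced GENCODE transcript, 5′ to 3′ on the sense strand of GRCm38. On that build they are chr1:118523321-118523347 and chr1:118541675-118541698 for Clasp1 and chr9:113858581-113858604, chr9:113860120-113860137 and chr9:113878750-113878773 for Clasp2, all on the plus strand. The Clip1 exons are chr5:123581592-123581597 and chr5:123635174-123635278 on the minus strand.
Clasp1, 27 nt: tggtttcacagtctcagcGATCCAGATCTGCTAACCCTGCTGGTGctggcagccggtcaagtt
Clasp1, 24 nt: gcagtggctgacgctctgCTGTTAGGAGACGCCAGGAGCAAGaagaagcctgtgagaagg
Clasp2, later 24 nt: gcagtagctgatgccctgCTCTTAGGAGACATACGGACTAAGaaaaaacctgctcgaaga
Clasp2, earlier 24 nt: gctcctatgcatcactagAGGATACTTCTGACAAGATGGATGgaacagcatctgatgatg
Clasp2, 18 nt: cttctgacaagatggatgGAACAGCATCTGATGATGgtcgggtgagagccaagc
Clip1, 6 nt: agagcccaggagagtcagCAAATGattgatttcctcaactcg
Clip1, 105 nt: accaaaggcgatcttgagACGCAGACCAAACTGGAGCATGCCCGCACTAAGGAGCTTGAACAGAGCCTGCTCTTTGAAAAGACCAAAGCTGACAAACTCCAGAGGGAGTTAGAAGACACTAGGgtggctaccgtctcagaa
The 24-nt exon of Clasp1 and the later 24-nt exon of Clasp2 are alike, with 17 of 24 exon bases and 27 of 36 flanking bases identical at the same place. They are exon 23 of 37 and exon 19 of 33 of their transcripts. The earlier 24-nt exon of Clasp2 shares 7 of 24 bases with the later one and 9 of 24 with the Clasp1 exon. In the transcript shown the earlier 24-nt exon is spliced directly to the 18-nt exon, so each appears in the flank of the other.

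Clasp2 had 3 microexons (exons of 3 to 27 nt) that were low in both knockdowns of the second experiment. Its later 24-nt exon had a PSI of 75.5% and 80.5% in the control libraries a and b, 10.4% and 8.5% under Srrm4 knockdown, and 25% and 38.0% under Zfp871 knockdown. Both knockdowns lay below both controls, and the Zfp871 libraries lay above the Srrm4 libraries. Against a control mean of 78.0% ± 3.5 (SD, n = 2), it fell by 68.6 points under Srrm4 knockdown, and its difference was -46.5 points under Zfp871 knockdown. The fall under Srrm4 knockdown was called by the edgeR quasi-likelihood test (adjusted over all exons, with a difference of at least 10 points), the only one of 43 tested member exons, where 0.123% of all 20265 tested exons were called, all lower. The call was lost without any single library of that comparison, with differences from -71.0 to -66.1 points, and in a fit of its 4 libraries alone. With the first set of libraries the same exon stood at 78.1% in control (95% exact interval 71.3 to 84.1), 78.7% (71.2 to 85.3) under Mbnl1 and Mbnl2 knockdown and 74.5% (67.5 to 80.6) under Nacc1 knockdown, with all 3 intervals overlapping.

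The earlier 24-nt exon of Clasp2 varied most between the controls among the 8, with 39.9% and 62.3%. It stood at 7.9% and 9.1% under Srrm4 knockdown and at 16.4% and 22% under Zfp871 knockdown. Both knockdowns lay below both controls. The mean differences were -42.6 and -31.9 points, from a control mean of 51.1% ± 15.9 (SD, n = 2). Within letter a the differences were -32.0 and -23.4 points and within letter b -53.2 and -40.3. The first-experiment libraries put it at 51.1%, 50.3% and 46.8% for control, Mbnl1 and Mbnl2 knockdown, and Nacc1 knockdown, with overlapping intervals. The 18-nt exon, which has the same neighbouring splice sites in the tables and so shares exclusion reads with it, stood at 16.6% and 19.6% in control, 5.9% and 4.0% under Srrm4 knockdown and 10.9% and 1.6% under Zfp871 knockdown. Both knockdowns lay below both controls, but the Srrm4 libraries lay between the 2 Zfp871 libraries. The 2 Zfp871 libraries differed by almost as much from each other as from the controls. Its first-experiment values were 21.3%, 23.3% and 18.8%. None of these differences of the earlier 24-nt and the 18-nt exon was called by edgeR.

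Clasp1 carried the related 24-nt exon and 2 further exons, of which the 27-nt exon alone passed the 20-point size of the first experiment. The 24-nt exon stood at 89.2% and 90.5% in control, 61.3% and 63.6% under Srrm4 knockdown and 79.8% and 78.3% under Zfp871 knockdown. The 3 groups did not overlap: the mean differences from control were -27.4 points under Srrm4 and -10.8 points under Zfp871 knockdown, with 16.6 points between the knockdowns. None of these was called by edgeR. Its first-experiment values were 79.7% (74.3 to 84.3) in control, 89.2% (84.7 to 93.0) under Mbnl1 and Mbnl2 knockdown and 85.6% (80.3 to 90.1) under Nacc1 knockdown. The intervals of the first control and the Mbnl1 and Mbnl2 knockdown did not overlap, but the difference of 9.5 points is under the size used for that experiment.

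The 27-nt exon of Clasp1 stood above its control in one experiment and below it in the other. The difference between the experiments was not tested. It stood at 39.2% (32.0 to 46.6) in the control of the first experiment, 77.7% (71.2 to 83.5) under Mbnl1 and Mbnl2 knockdown and 73.3% (65.9 to 79.4) under Nacc1 knockdown, 38.5 and 34.1 points higher. Second-experiment libraries stood at 33.3% and 45.2% in control, 15.4% and 16.0% under Srrm4 knockdown and 19.1% and 23.8% under Zfp871 knockdown. Both knockdowns lay below both controls there. The differences were -23.6 and -17.8 points, and edgeR called neither. Mbnl1 itself was at 82.7 CPM in the Nacc1 knockdown library against 124.2 in its control, and Mbnl2 at 65.6 against 65.7; the part of Mbnl1 in the Nacc1 values was not tested.

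The 108-nt exon of Clasp1 stood below control in all 4 knockdowns. It stood at 25.1% (20.4 to 30.7) in the first control, 9.8% (6.3 to 14.3) under Mbnl1 and Mbnl2 knockdown and 6.5% (3.6 to 11.1) under Nacc1 knockdown. In the second experiment it stood at 23.9% and 22.3% in control, 12.2% and 10.5% under Srrm4 knockdown and 11.6% and 10.9% under Zfp871 knockdown, with mean differences of -11.8 and -11.9 points. Both knockdowns lay below both controls, and edgeR called neither difference. A 63-nt exon (chr1:120432712-120432774 on mm9) has the same neighbouring splice sites and shares exclusion reads with it. That exon stood at 19.7%, 4.0% and 3.9% in the first experiment, and at 9.2% and 15% in control, 10.1% and 13.5% under Srrm4 knockdown and 4.5% and 5.7% under Zfp871 knockdown, so that the Srrm4 libraries lay between the controls.

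**Figure D1:**
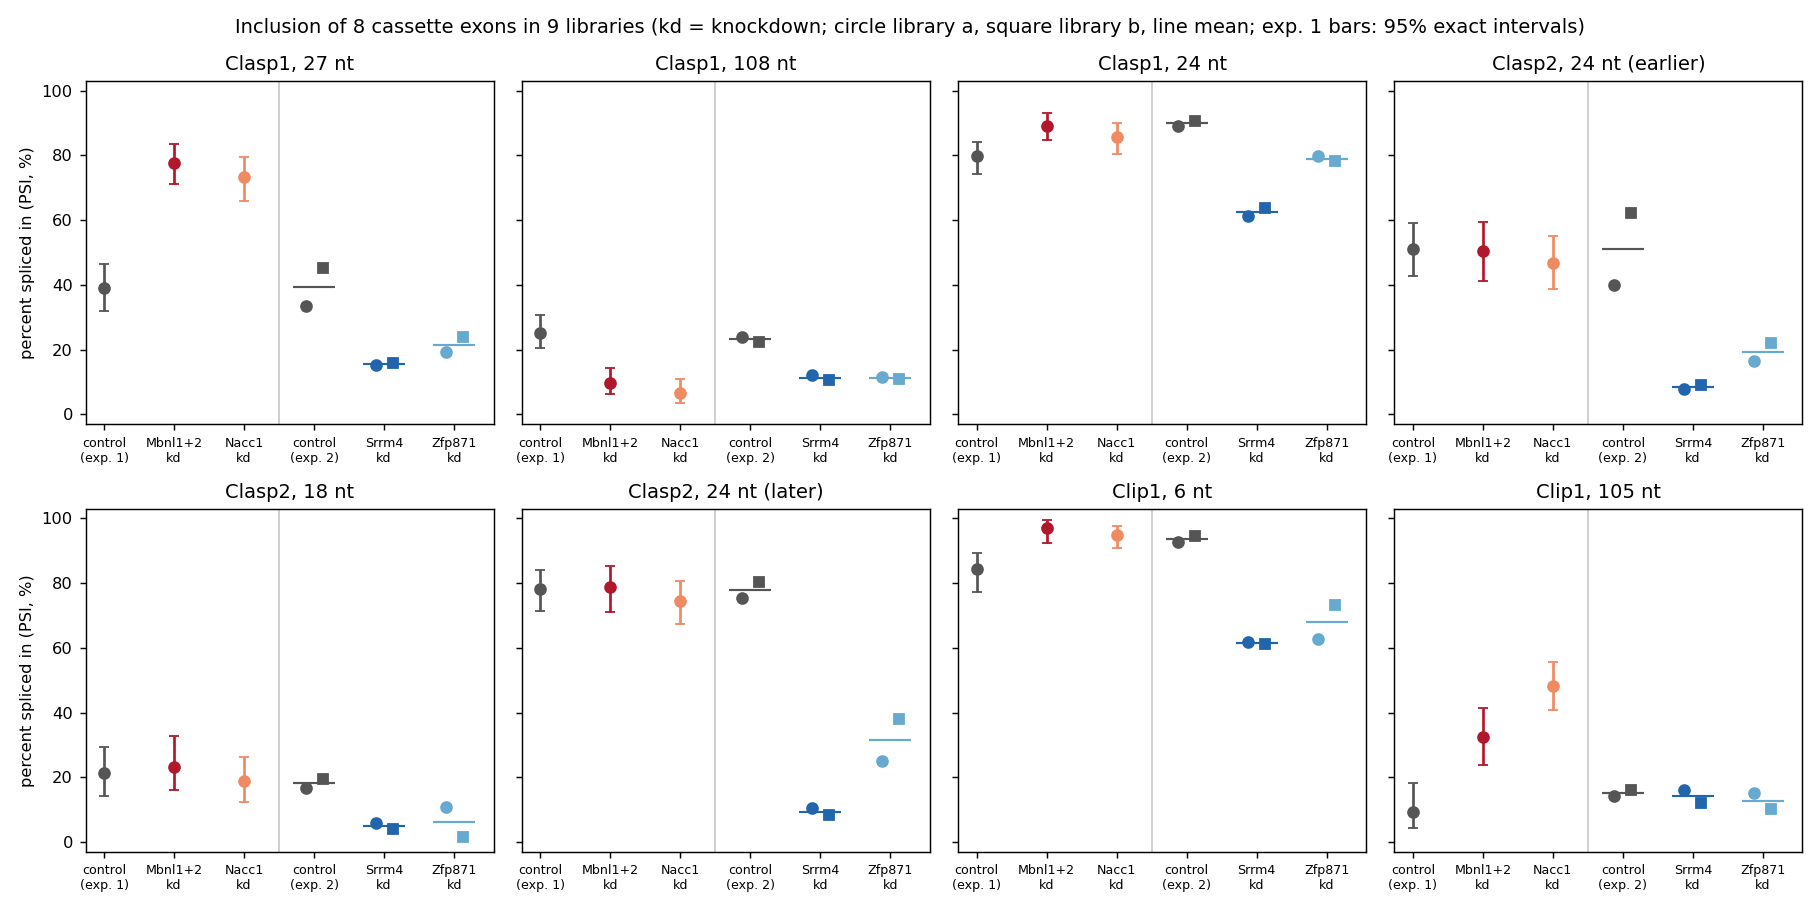
Percent spliced in (vertical axis, %) of the 8 cassette exons in each of the 9 libraries, 1 panel per exon, with the first experiment left and the second right of the grey line. Bars are 95% exact intervals of single libraries and horizontal lines means of 2 libraries; the later Clasp2 24-nt exon is between 75.5% and 80.5% in both controls of the second experiment and at most 10.4% under Srrm4 knockdown, while the 105-nt Clip1 exon is high only in the 2 knockdown libraries of the first.

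Clip1, which encodes CLIP-170, had a 6-nt and a 105-nt exon among the 8. Its 6-nt exon stood at 92.8% and 94.6% in control, 62.0% and 61.1% under Srrm4 knockdown and 62.7% and 73.2% under Zfp871 knockdown. Both knockdowns lay below both controls, with mean differences of -32.2 and -25.8 points that edgeR did not call, and the Zfp871 libraries lay just above the Srrm4 libraries. The first experiment gave 84.2% (77.1 to 89.5) in control, 97.0% (92.4 to 99.5) under Mbnl1 and Mbnl2 knockdown and 94.8% (90.8 to 97.7) under Nacc1 knockdown. Both knockdown intervals lay above that of the control, but the differences of 12.7 and 10.5 points are under the size used for that experiment. This first control also lay below the controls of the second experiment. The 105-nt exon stood at 9.1% (4.3 to 18.1) in the first control, 32.4% (23.9 to 41.4) under Mbnl1 and Mbnl2 knockdown and 48.2% (40.7 to 55.6) under Nacc1 knockdown, 23.2 and 39.1 points higher. In the second experiment its groups overlapped, at 14.1% and 16.1% in control, 16.0% and 12.1% under Srrm4 knockdown and 15.1% and 10.1% under Zfp871 knockdown. The mean differences were -1.0 and -2.5 points.

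Counted together, 7 of the 43 tested member exons were at least 10 points lower with groups that did not overlap under Srrm4 knockdown, and 7 under Zfp871 knockdown, where 2.60% and 2.90% of all tested exons were. In both they were the 8 described exons without the 105-nt exon of Clip1. Both comparisons use the same 2 control libraries, so their agreement is not independent. Srrm4 was itself at 44.9 and 53.7 CPM under Zfp871 knockdown against 66.8 and 96.7 in control, and its part in the Zfp871 values was not tested. Under Zfp871 knockdown edgeR called 0 member exons and 0% of all exons, with 8 member exons at an unadjusted p under 0.05 (4.67% of all tested exons were). Under Srrm4 knockdown 11 members and 5.70% of all were under that unadjusted p. Limma on the logit of PSI called 0 member exons under Zfp871 knockdown, and the share of all exons that it called there is not given here. A likelihood ratio test on the same reads called 6 member exons lower under Srrm4 knockdown (1.12% of all tested were) and 5 under Zfp871 knockdown (0.819%). In the direct comparison of the 2 knockdowns edgeR called 0 member exons and 0% of all exons, with 5 members at an unadjusted p under 0.05 (5.33% of all). Limma called 0 members, again without its share of all exons here. The likelihood ratio test called 2 higher under Zfp871 knockdown, the related 24-nt exons of Clasp1 and Clasp2 (0.39% of all tested were called higher). For the first experiment a size rule took the place of a test: a minimum of 20 reads per library, 20 points of difference and exact intervals apart from each other. The 27-nt exon of Clasp1 and the 105-nt exon of Clip1 passed it, both higher, in both knockdowns, where 0.534% (Mbnl1 and Mbnl2) and 0.498% (Nacc1) of all exons passed. These comparisons share their only control library.

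The authors' deposited table marks 6 member exons as differential under Srrm4 knockdown and 6 under Zfp871 knockdown, against 0.815% and 0.662% of all exons in it. They are the 7 exons above without the 18-nt exon of Clasp2, which has no value there for Srrm4 knockdown and is not marked for Zfp871 knockdown. For the Mbnl1 and Mbnl2 knockdown it marks 7 and for the Nacc1 knockdown 5, against 1.56% and 1.68% of all exons. Those marked for both are the 27-nt, 108-nt and 63-nt exons of Clasp1 and the 6-nt and 105-nt exons of Clip1. Marked for Mbnl1 and Mbnl2 only are the 157-nt exon of Mapre3 and a 17-nt exon of Clasp2, which has no value there for Nacc1 knockdown. The 17-nt exon stood at 7.1%, 19.3% and 1.6% in control, Mbnl1 and Mbnl2, and Nacc1 knockdown.

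**Figure D2:**
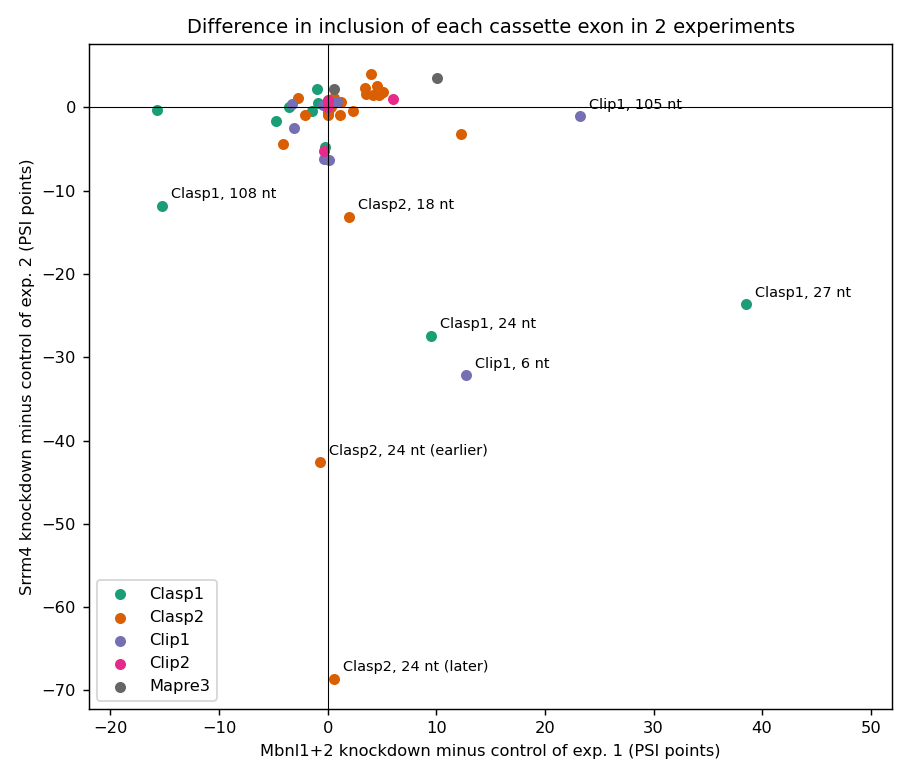
Difference in PSI of each member exon with reads under Mbnl1 and Mbnl2 knockdown (horizontal axis, points, 1 library a group) against that under Srrm4 knockdown (vertical axis, points, mean of 2 libraries a group), coloured by gene. The 3 Clasp2 microexons among the 8 described exons lie on a vertical line near 0 with up to -68.6 points, while a 17-nt Clasp2 microexon lies at 12.2 points on the horizontal axis. The 105-nt Clip1 exon lies on the horizontal line at 23.2 points, and the 27-nt Clasp1 exon has 38.5 points on one axis and -23.6 on the other.

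The member exons were also read by length. Of 14 microexons with reads, 11 were tested, and all 11 had a lower mean PSI under Srrm4 knockdown and under Zfp871 knockdown. Their median differences were -13.1 and -10.8 points, beside -2.59 and -3.03 over all 510 tested microexons. The share of all tested microexons that were lower is not given here, and the members were chosen with several of these values known. Some moved little: a 27-nt exon of Clasp2 had means of 1.6%, 0.7% and 1.5% in control, Srrm4 and Zfp871 knockdown. The 32 longer member exons had medians of 0.77 and 0.02 points, beside 0.00 and -0.23 over all 19755. The same 11 microexons had first-experiment medians of 0.57 (7 higher, 4 lower) and -1.31 points (4 higher, 7 lower) under Mbnl1 and Mbnl2 and under Nacc1 knockdown. The 3 microexons not tested had a PSI under 2% or over 98% throughout. Of the tested microexons not described above, a 24-nt exon of Clasp1 (chr1:120409282-120409305) stood at 3.9% and 6.5% in control and 0.4% and 0.5% under Srrm4 knockdown. A 21-nt exon of Clip1 (chr5:124036343-124036363) stood at 9.3% and 6.0% in control, 0.0% and 2.6% under Srrm4 knockdown and 0.0% and 2.2% under Zfp871 knockdown. At -6.4 points, that exon was the nearest below the limit of 10 points under Srrm4 knockdown, and the 108-nt Clasp1 exon at -11.8 the nearest above it.

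**Figure D3:**
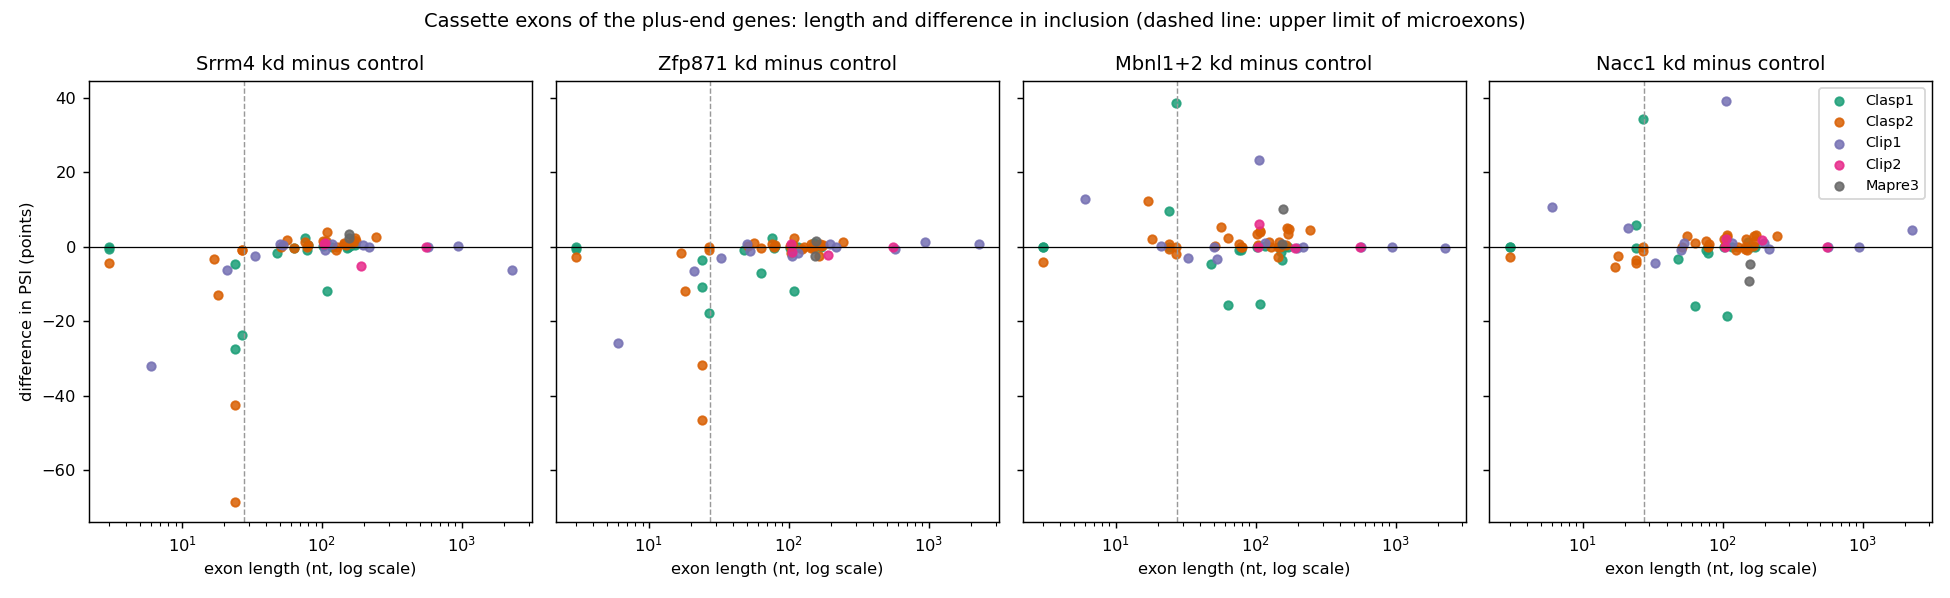
Exon length (horizontal axis, nt, log scale) against the difference in PSI from control (vertical axis, points) for the member exons with reads in each of the 4 knockdowns, with the upper limit of microexons dashed. Under Srrm4 and Zfp871 knockdown the differences beyond 20 points, up to -68.6 and -46.5, are all left of the line, while under Mbnl1 and Mbnl2 and under Nacc1 knockdown the 27-nt Clasp1 exon and the 105-nt Clip1 exon stand out at 38.5 and 23.2 and at 34.1 and 39.1 points.

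The other 55 exons with reads met neither limit. Their differences between single libraries ran from -15.7 to 12.2 points under Mbnl1 and Mbnl2 knockdown and from -15.8 to 5.0 under Nacc1 knockdown. Of these, 34 were nearly always included (over 90% in both controls of the second experiment), and their mean differences ran from -5.3 to 4.0 points under Srrm4 knockdown and from -2.9 to 2.2 under Zfp871 knockdown. A further 15 were mostly skipped (under 10% in both controls), with -6.4 to 0.3 and -6.6 to 1.0 points. The remaining 6 were alternative in N2A cells, among them the 63-nt exon of Clasp1 given above. Clip2 has 1 alternative exon, of 105 nt (chr5:134980604-134980708). It stood at 23.3%, 29.3% and 25.4% in control, Mbnl1 and Mbnl2, and Nacc1 knockdown, and at 16.7% and 16.7%, 16.3% and 19.1%, and 12.7% and 17.8% in control, Srrm4 and Zfp871 knockdown, with groups that overlapped. Mapre3 has 2, of 157 and 155 nt, which stood between 77.3% and 97.4% in the second experiment, again with overlap. A 2268-nt exon of Clip1 stood at 11.9% and 12.4% in control, 7.1% and 4.8% under Srrm4 knockdown and 13.8% and 11.8% under Zfp871 knockdown. A 164-nt exon of Clasp2 stood at 82.4% to 93.9% in the second experiment. The single cassette exon listed for Mapre1 and for Mapre2 had 2 reads each over all 9 libraries, so the EB genes other than Mapre3 gave no PSI.

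Exons of other genes with the most similar profile were taken as the 3 with the smallest mean absolute PSI difference over the 9 libraries, among 34161 exons with at least 20 reads in each. The later 24-nt exon of Clasp2 was nearest to a 15-nt exon of Vav2 (7.9 points), a 27-nt exon of Daam1 (8.3) and a 6-nt exon of Snap91 (8.4). The earlier 24-nt exon was nearest to a 15-nt exon of Ergic3 (4.4), a 24-nt exon of Ckap5 (5.2) and a 30-nt exon of Ppfia1 (5.7). The 18-nt exon was nearest to microexons of E2f7 (24 nt, 2.8), Pus7 (18 nt, 2.8) and Ank3 (27 nt, 2.9). For the 24-nt exon of Clasp1 the nearest were in Meaf6 (34 nt, 4.2), Parp6 (70 nt, 4.5) and Gltscr1 (66 nt, 4.8), and for the 6-nt exon of Clip1 in Asap2 (4 nt, 4.8), Parp6 (70 nt, 5.0) and Meaf6 (34 nt, 5.2). The 27-nt exon of Clasp1 was nearest to longer exons, of Lrch3 (248 nt, 4.6), Arhgef10l (117 nt, 6.4) and Faim (57 nt, 7.2). The 108-nt exon was nearest to exons of Zfp462 (3.8), 2210404J11Rik (3.9) and Fam13b (3.9), and the 105-nt exon of Clip1 to exons of Cyfip1 (4.0), Adam23 (4.7) and Ctnnd1 (5.3). The 9 libraries share controls within an experiment, so these distances only describe the profiles.

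Expression of the 7 genes was compared in the same libraries. Levels per length, in RPKM, were 43.5 ± 0.58 for Mapre2, 29.6 ± 1.4 for Mapre1, 19.5 ± 2.1 for Clasp1, 18 ± 3.6 for Clasp2, 12.6 ± 1.2 for Clip1, 7.84 ± 0.47 for Clip2 and 4.21 ± 1.0 for Mapre3 in the control of the second experiment (mean ± SD, n = 2). Neighbours in this order did not overlap except Clasp1 and Clasp2, and in the control of the first experiment Clasp2 (24.7) stood above Clasp1 (19.5). In these bulk samples fewer cells of a kind and less RNA per cell cannot be told apart. EdgeR called 0 of the 7 genes under Srrm4 knockdown (4.7% of 12378 tested genes were called) and 0 under Zfp871 knockdown (2.89%), with 3 and 2 members at an unadjusted p under 0.05 (24.8% and 21.1% of all genes). DESeq2 called Mapre2 and Clip2 under Srrm4 knockdown (13.9% of genes) and Mapre1 under Zfp871 knockdown (10.6%). In the first experiment no member passed the size rule for genes: log2 fold changes ran from -0.27 to 0.05 under Mbnl1 and Mbnl2 knockdown (1.02% of genes reached a log2 fold change of 1 in either direction) and from -0.47 to 0.27 under Nacc1 knockdown (3.38%).

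Among the EB genes, Mapre1 (ENSMUSG00000027479) had levels of 28.6 and 30.5 RPKM in control, 22.9 and 25.6 under Srrm4 knockdown and 37.6 and 37.3 under Zfp871 knockdown. The 3 groups did not overlap. Its log2 fold change was -0.28 (SE 0.11) under Srrm4 knockdown and 0.35 (SE 0.11) under Zfp871 knockdown, and between the 2 knockdowns it was 0.63 higher under Zfp871 knockdown (SE 0.11). That last difference was called by edgeR and DESeq2, where 11.1% and 19.1% of genes were called, and it was the only member call in that comparison. It was lost without any single library of the comparison, at 0.52 to 0.74. Mapre2 (ENSMUSG00000024277) had 43.1 and 43.9 RPKM in control, 31.7 and 34.9 under Srrm4 knockdown and 39.4 and 44.0 under Zfp871 knockdown. The Srrm4 libraries lay below the rest, with a log2 fold change of -0.38 (SE 0.11). Mapre3 (ENSMUSG00000029166) was the lowest member, at 4.92 and 3.50, 3.54 and 2.22, and 3.14 and 2.14 RPKM in the same order, on 216 to 442 counts. Its log2 fold changes were -0.55 (SE 0.30) and -0.67 (SE 0.30). Letter b was below letter a in each group, and within the letters the values were -0.49 and -0.64 and then -0.64 and -0.70.

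Clip2 (ENSMUSG00000063146) had 8.18 and 7.50 RPKM in control, 6.63 and 5.08 under Srrm4 knockdown and 6.02 and 5.50 under Zfp871 knockdown. Both knockdowns lay below the controls, with log2 fold changes of -0.43 (SE 0.13) and -0.44 (SE 0.13). Its first-experiment levels were 8.62 in control, 9.32 under Mbnl1 and Mbnl2 knockdown and 6.18 under Nacc1 knockdown. Clip1 (ENSMUSG00000049550) stood at 12.95, 12.2 and 15.6 there, and at 11.8 and 13.5, 12.95 and 15.05, and 11.3 and 11.8 in the second experiment, where the Srrm4 libraries overlapped the controls. Clasp1 (ENSMUSG00000064302) and Clasp2 (ENSMUSG00000033392) hold most of the exons described one by one. Their log2 fold changes were -0.06 and -0.03 under Srrm4 knockdown and -0.01 and -0.01 under Zfp871 knockdown, with SEs of 0.14 and 0.18.

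**Figure D4:**
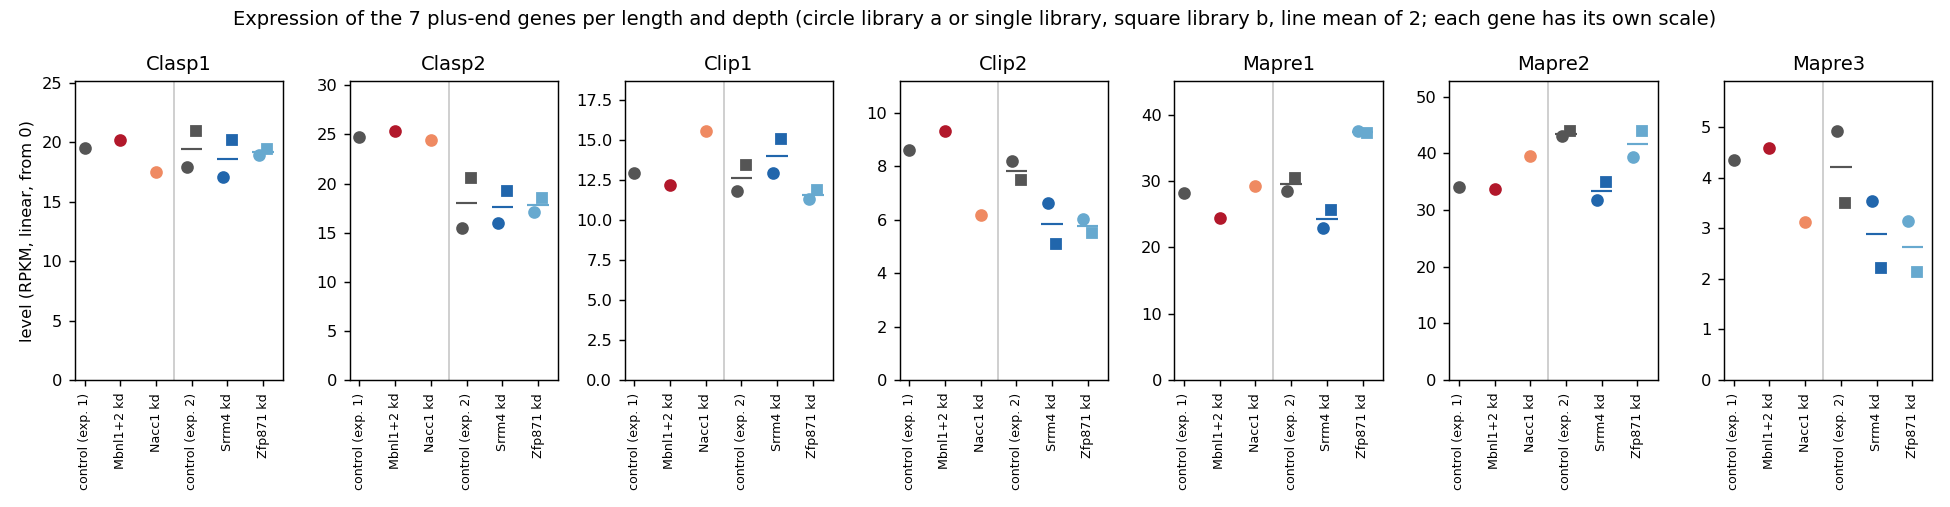
Level of each of the 7 genes in the 9 libraries (vertical axis, RPKM, linear from 0, own scale per gene), with lines at the mean of 2 libraries. Mapre1 is at 37.6 and 37.3 RPKM under Zfp871 knockdown, above all other libraries, Mapre2 is lowest in the second experiment under Srrm4 knockdown, and Clasp1 and Clasp2 overlap between groups.

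A list of other proteins of microtubule ends held 44 symbols, 40 of them in the tables and 36 tested for expression. EdgeR called 2 lower and 0 higher under Srrm4 knockdown, where 4.7% of all tested genes were called in either direction. The list median log2 fold change was -0.10 beside 0 over all genes. Clip3, a relative of the CLIPs, fell by 0.66 (SE 0.09, edgeR adjusted p = 0.0276), with 131.1 and 123.2 CPM in control and 85.1 and 76.4 under knockdown. Slain2, a partner of the microtubule polymerase Ckap5, fell by 0.44 (SE 0.08, edgeR adjusted p = 0.0436). A fit of the 4 libraries of that comparison alone called 0 of all genes, so neither Clip3 nor Slain2 was called there. For the comparisons that follow, the calls of single list genes in fits of fewer libraries are not given here. Under Zfp871 knockdown 2 were lower and 0 higher (median -0.06 beside -0.01), where 2.89% of all tested genes were called. Camsap1, which binds minus ends, fell by 0.78 (SE 0.13, edgeR adjusted p = 0.0383) and the EB-binding Mtus2 by 0.65 (SE 0.11, edgeR adjusted p = 0.0428). Between the knockdowns 5 were higher and 2 lower under Zfp871 knockdown, where 11.1% of all tested genes were called. The dynein regulator Ndel1 was higher, with a log2 fold change of 1.15 (SE 0.20, edgeR adjusted p = 0.0222), with 77.1 and 76.9 CPM against 39.9 and 29.7, followed by the kinesin Kif18b (0.63), Clip3 (0.55), Slain2 (0.52) and Nde1 (0.34), while Camsap1 (-0.61) and Mtus2 (-0.58) were lower. None of the 35 list genes with enough counts passed the size rule in the first experiment.

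The cassette exons of the listed genes were counted in the same way. Of 105 tested exons in 30 of the genes, edgeR called 0 under either knockdown of the second experiment (0.123% and 0% of all exons were called). At an unadjusted edgeR p under 0.05 were 14 and 11 (5.70% and 4.67% of all exons). Limma called 0 as well, and its share of all exons is not given beside it. By likelihood ratio, 10 were lower and 0 higher with Srrm4 reduced, against 9 lower and 1 higher with Zfp871 reduced. Of all tested exons 1.12% were lower and 0.271% higher by that test with Srrm4 reduced, and 0.819% and 0.0938% with Zfp871 reduced. One was the 24-nt exon of Ckap5, the microtubule polymerase, which stood at 46.4% and 52.8% in control, 15.2% and 13.2% under Srrm4 knockdown and 18.3% and 19.9% under Zfp871 knockdown. It stood at 50.6%, 56.6% and 55.4% in the other experiment. Of the first-experiment exons 258 had enough reads, and 4 passed the size rule under Mbnl1 and Mbnl2 knockdown and 2 under Nacc1 knockdown (0.534% and 0.498% of all exons). An 18-nt exon of Dst, a spectraplakin, stood at 92.3% (87.3 to 95.9) in control, 10.2% (6.0 to 15.3) and 56.8% (50.2 to 63.5), and between 84.6% and 91.4% in the second experiment. A 9-nt exon of Tacc2 stood at 10.0%, 68.3% and 23.6%. The CLASP anchor gene Phldb1 had exons of 129 nt (33.0%, 61.8% and 49.5%) and 141 nt (34.4%, 57.4% and 50.2%), and a 63-nt exon of Ppfia1 stood at 42.8%, 38.8% and 22%. In the second experiment the Ppfia1 exon differed by -28.2 points under Srrm4 and -20.6 under Zfp871 knockdown, both called lower by likelihood ratio. Mean differences in the same order were -14.2 and -4.1 (Phldb1, 129 nt), -9.3 and -8.9 (Phldb1, 141 nt) and -8.4 and -2.7 points (Tacc2). Under Zfp871 knockdown the 129-nt Phldb1 and the Tacc2 exon overlapped the controls.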

How the data were processed

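Read counts per gene were used as deposited, per the file headers. Levels between genes are RPKM (counts scaled by length and library total), computed for all 9 libraries from the counts and the gene lengths implied by the authors' deposited cRPKM (a corrected RPKM) of the first experiment. The deposited vast-tools tables give PSI in percent per the file headers, and the inclusion and exclusion reads behind it, from which PSI was recomputed (within 0.1 points of the deposited PSI for at least 99.72% of exons in each library of the first experiment). Per the submitters' processing notes the build is mm9 and the tools CASAVA 1.8 and edgeR. No source used here gives the aligner, the counter or the vast-tools version, nor which library was extracted with which of the kits the labels name. Entries without counts (1114) and 14 further columns of per-library values (levels and PSI of the second experiment and a trimmed control) were left out.

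All genes (12378 after filterByExpr) and all cassette exons (20265 with at least 10 reads in each of 6 libraries and a PSI of 2 to 98 in at least 1) of the second experiment were fitted over its 6 libraries in edgeR 4.0.16 (R 4.3.3, TMM factors, quasi-likelihood test, Benjamini-Hochberg adjustment over all features, threshold 0.05). Exons were fitted on inclusion and exclusion reads as paired classes with 1 dispersion per exon, and edgeR's default abundance trend in the quasi-likelihood prior. Alternatives used DESeq2 1.42.0 and limma 3.58.1. The scripts were tested on simulated data. In the first experiment, with 1 library a group, 95% exact intervals (Clopper-Pearson) were set beside a size rule and no test was made; intervals cover counting error only. Its gene rule needed at least 50 counts and a log2 fold change of 1 (TMM, prior count 2).

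The members, lists and the rule for named exons (given in the text) were chosen with earlier results of these data known. Named genes of the list are those called or past the size rule, with the Ckap5 exon added after its values were seen. Sequences were read from the GENCODE annotation of GRCm38; no coordinates were converted.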

Additional observations from a re-analysis of the deposited data

How the results depend on the processing

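The member calls kept their direction under each alternative that called them. Counts of called members moved as follows, without a cause being tested unless the setting removes libraries. For genes, DESeq2 called 2 under Srrm4 and 1 under Zfp871 knockdown against 0 and 0. Without 1 library of the comparison, the Mapre1 call between the knockdowns went from 1 to 0 in all 4 fits, and the other gene counts stayed at 0. For exons, the likelihood ratio test called 6 under Srrm4 knockdown, 5 under Zfp871 knockdown and 2 between them, against 1, 0 and 0. The 1 Srrm4 call (later 24-nt exon of Clasp2) became 0 with only the 4 libraries compared, 0 without each library in turn, and 0 without the abundance trend in the prior, a setting chosen after seeing the data. It held with limma, a minimum of 20 reads and a difference of 15 points. The other exon counts were 0 in each of these. Over all tested exons the Srrm4 count went from 25 to 282 (likelihood ratio), 16 (20 reads), 11 (limma), 1 (4 libraries) and 0 (no trend, or without any 1 library). Over all genes DESeq2 called 1717, 1316 and 2363 against 582, 358 and 1374, fits of only the 4 libraries compared called 0, 178 and 1172, and fits without 1 library called 0 to 180, 0 to 29 and 0 to 530. A library left alone in its group was there given the spread of the remaining groups. In the first experiment the size rule passed 6 exons at 10 points and 1 at 30 points under Mbnl1 and Mbnl2 knockdown, and 5 at 10 points under Nacc1 knockdown, against 2 and 2; all exons passed at 1.21%, 0.229% and 1.28% in those settings. Small member differences that were called in no fit changed sign without 1 library. On the log2 scale, Srrm4 against control then ran from -0.2359 to 0.2118 for Clasp2 and from -0.2196 to 0.0854 for Clasp1. Zfp871 against control ran from -0.2067 to 0.2306 for Clasp2, -0.1276 to 0.1245 for Clasp1, -0.2174 to 0.0011 for Clip1 and -0.1461 to 0.0467 for Mapre2. Zfp871 against Srrm4 ran from -0.3959 to 0.2184 for Mapre3, -0.1394 to 0.1899 for Clasp2, -0.0988 to 0.2039 for Clasp1 and -0.1703 to 0.1548 for Clip2, which was 0.0016 with no filter on low counts. In PSI points, the 105-nt exon of Clip1 ran from -3.003 to 0.9334 (Srrm4), -4.957 to 0.0106 (Zfp871) and -3.922 to 1.045 (between them), and between the knockdowns the 108-nt exon of Clasp1 ran from -0.8899 to 0.7601 and the 18-nt exon of Clasp2 from -3.339 to 5.919. With 71 to 289 reads per described exon, differences of a few points are within counting error.

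The columns carry letters where the labels carry replicate numbers, and no source ties them, so the letters do not establish a pairing. Deviations of libraries of equal letter correlated (r = 0.749, 0.662 and 0.637 over 12378 genes). With a replicate block for the letter, 4 member genes were called under Srrm4 knockdown, 3 under Zfp871 knockdown and 3 between them, when 36.9%, 31.1% and 41.9% of all genes were. The block left the member exon counts at 1, 0 and 0, and put the Clasp2 log2 fold change under Zfp871 knockdown at 0.0023. The share of all exons called with the block is not given here.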

Other observations

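Retained introns and alternative splice sites of the 7 genes were read as values only (117 introns and 17 splice-site choices with at least 10 reads in all 9 libraries). Of the introns, 1, 0, 2 and 3 differed by at least 10 points under Srrm4, Zfp871, Mbnl1 and Mbnl2, and Nacc1 knockdown, beside 0.811%, 0.767%, 1.66% and 1.69% of all 91226 introns. Of the splice-site choices, 1, 0, 0 and 3 did so, beside 1.67%, 1.90%, 2.79% and 2.58% of all 25532. The Clasp2 intron just upstream of the later 24-nt exon (2399 nt, chr9:113785469-113787867 on mm9) was retained at 4.9% and 11.1% in control, 23.7% and 42.8% under Srrm4 knockdown and 18.7% and 16.8% under Zfp871 knockdown. Both knockdowns lay above both controls, although the Srrm4 libraries rest on 26.7 and 25.7 reads by the tables' own count. The controls had 109.1 and 182.9 reads and the Zfp871 libraries 45.1 and 92.5. Reads that splice this intron out join the 24-nt exon itself. The share can therefore rise where that exon is skipped, without more retained reads, and whether retained reads rose was not tested. In the first experiment the intron was retained at 20.5%, 24.1% and 19.6%, so its controls differed between experiments by more than the Zfp871 knockdown differed from its control.

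In Mapre3, the donor site that makes the 157-nt exon 45 nt longer was used at 46.5%, 41.7% and 21.4% in control, Mbnl1 and Mbnl2, and Nacc1 knockdown, on 43, 36 and 28 reads. The intron after it (1168 nt, chr5:31165779-31166946) was retained at 39.4%, 50% and 72.7% in the same libraries. It was retained at 7.1% to 12% in all 6 libraries of the second experiment. A Clip2 intron of 2376 nt was retained at 16.4%, 28.4% and 29.3% in the first experiment and at 4.4% to 12.5% in the second. A donor site of Clip1 was used at 44.1% and 41.5% in control, 51.4% and 58.6% under Srrm4 knockdown and 47.8% and 46.7% under Zfp871 knockdown. In the first experiment that donor was used at 46.7%, 44.0% and 34.9% in control, Mbnl1 and Mbnl2, and Nacc1 knockdown.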
